A study of Mus musculus with 8 samples.

Results

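The C1q-like synapse organisers are described here across the mouse hippocampus as 4 genes, the ligands C1ql1, C1ql2 and C1ql3 and their receptor Adgrb3, chosen by name. All 4 were present among the 46517 genes of the bulk RNAseq tables and the 24051 genes of the single nucleus (sn) RNAseq tables. The 8 samples were 4 bulk RNAseq libraries and 4 snRNAseq libraries from both hippocampi of 12-week-old mice labelled male, 1 mouse per library and 2 mice per genotype and assay. Control mice were Wls fl/+;Gfap-Cre and mutant mice were Wls fl/-;Gfap-Cre, so both genotypes carried the Cre transgene and 1 floxed Wls allele, and they differed in whether the other allele was intact or null. Wls codes for the chaperone that Wnt proteins need for secretion, and Gfap-Cre is active in a subset of cortical neural progenitors, so the mutant is not a deletion in dentate granule cells (DGCs) alone. The question was how the transcripts of these ligands and of their receptor differ in a hippocampus with few DGCs.

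C1q-like proteins are secreted, carry a globular C1q domain and assemble into trimers and larger complexes. C1ql2 and C1ql3 are made by DGCs and are released from mossy fibres, the DGC axons that end on CA3 pyramidal cells, where they gather kainate receptors at the synapse. C1ql1 is best known from the climbing fibres of the cerebellum, and Adgrb3, also called BAI3, is the adhesion G protein-coupled receptor that binds all of these ligands on the postsynaptic side.

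Bulk libraries held 56002381 to 79576196 expected counts, and snRNAseq libraries held 5304 to 10460 nuclei with at least 1500 unique molecular identifiers (UMIs) each and a median of 4128 to 7545 UMIs. Any pair of snRNAseq libraries shared between 8 and 21 barcodes. DGCs were 36.1% and 27.9% of control nuclei and 1.70% and 4.43% of mutant nuclei, and 7 of the 8 DGC markers were highest in the nuclei labelled DGC. The exception was Dock10, which was higher in oligodendrocytes. All 4 markers were highest under their own label for mossy cells, CA2, oligodendrocyte precursors (OPCs), astrocytes, oligodendrocytes and microglia, but only 1 of 4 for CA1 and 2 of 4 for CA3. All 4 choroid plexus markers and all 4 meninges markers were highest, among the labels tested, in nuclei labelled inhibitory neurons 14, so that this label goes against its markers. Wls stood at 13.2 and 13.0 CPM (counts scaled to the library total, with TMM) in control bulk RNA and at 3.67 and 6.86 in the mutant (FDR = 0.117 by edgeR's quasi-likelihood test). Within nuclei, Wls passed a fold change above 2 and an FDR below 0.05 in OPCs (log2 fold change -3.16) and astrocytes (-4.28). As many as 0.121% and 0.253% of all genes were called lower there. In DGC nuclei Wls was not called, with a log2 fold change of 0.49. In the bulk libraries numbered 2, Xist stood at 521 CPM in the control and 230 CPM in the mutant, with Ddx3y at 0.343 and 0.352 CPM, which goes against the label male, whereas both libraries numbered 1 and all 4 snRNAseq libraries held Ddx3y at 31.6 CPM or more. Choroid plexus markers summed to 121 and 63.6 CPM in control bulk RNA and to 709 and 5427 CPM in the mutant, and their part in the results was not tested.

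The mouse genes lie on 3 chromosomes (GENCODE annotation, mm10). C1ql2 occupies chr1:120340582-120343174 on the forward strand. C1ql3 occupies chr2:13003457-13011806 on the reverse strand. C1ql1 occupies chr11:102939264-102946688 on the reverse strand. Adgrb3 spans 762232 bases at chr1:25067476-25829707 on the reverse strand. The 250 bases before the start are shown for the pair of DGC transcripts that fell in bulk RNA, of which only C1ql2 was called within DGC nuclei. They belong to C1ql2 (chr1:120340332-120340581, forward strand) and C1ql3 (chr2:13011807-13012056, reverse strand). The first comes from the RefSeq promoter table and the second from the RefSeq genome of the same build, and both are given from 5′ to 3′ along the gene, with matches to the E-box CANNTG, the motif of basic helix-loop-helix factors, in capitals.
C1ql2: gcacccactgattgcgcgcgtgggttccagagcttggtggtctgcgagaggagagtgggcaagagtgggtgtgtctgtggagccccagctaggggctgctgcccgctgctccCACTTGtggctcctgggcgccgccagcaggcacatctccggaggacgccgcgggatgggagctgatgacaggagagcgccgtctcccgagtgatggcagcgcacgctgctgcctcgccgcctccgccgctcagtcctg
C1ql3: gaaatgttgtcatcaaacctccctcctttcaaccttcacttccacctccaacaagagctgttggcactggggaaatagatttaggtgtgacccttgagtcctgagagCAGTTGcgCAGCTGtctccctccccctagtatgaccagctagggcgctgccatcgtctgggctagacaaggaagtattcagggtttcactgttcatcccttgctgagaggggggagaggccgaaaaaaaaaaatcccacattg
The C1ql2 stretch is GC-rich, with 68.8% G or C and 20 CpG dinucleotides, whereas the C1ql3 stretch has 51.2% and 4, against a median of 52.4% G or C over 32536 distinct RefSeq promoter stretches of the same length (GRCm38.p6). A single E-box stands 138 bases before the C1ql2 start, and a pair stands 143 and 135 bases before the C1ql3 start. Of all promoter stretches, 66.2% hold at least 1 E-box. Those stretches were placed by RefSeq starts, whereas the C1ql3 stretch was placed by the GENCODE start. The part of this in its GC content and motif matches was not tested. The core CTTTGA bound by TCF/LEF, the factors of canonical Wnt signalling, and TGACG, a core bound by CREB factors, were searched on both strands and matched neither stretch, against 13.9% and 17.9% of all stretches.

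In bulk RNA, the DGC ligands C1ql2 and C1ql3 were lower in the mutant and the receptor Adgrb3 was not called. Per transcript length, C1ql2 stood at 32.6 and 34.8 TPM (RSEM's transcript level, scaled to the library) in the controls and at 7.48 and 3.85 TPM in the mutants. C1ql3 stood at 111 and 109 TPM in the controls and at 35.5 and 27.3 TPM in the mutants. For both genes the genotypes were far apart, and mutant replicate 2 was the lowest of the 4 mice. In edgeR's quasi-likelihood test across 20687 genes, C1ql2 fell by 2.48 on the log2 scale (SE 0.335, 5.59-fold, FDR = 0.0470, n = 2 mice per genotype). C1ql3 fell by 1.72 on the log2 scale (SE 0.149, 3.30-fold, FDR = 0.0225, n = 2). Both passed the thresholds of a fold change (FC) above 3 and an FDR below 0.05, as did 0.198% of all genes in that direction. In bulk RNA, fewer cells of a type and less RNA per cell cannot be told apart. Both calls rested on 4 libraries: with control replicate 1 or 2 left out, the FDR of C1ql2 was 0.225 or 0.316 and that of C1ql3 was 0.167 or 0.234, and without mutant replicate 2 C1ql3 fell by 1.52 on the log2 scale, short of an FC of 3. The lone mouse of a genotype is assumed there to vary like the other genotype. With the replicate number as a block, which also separated the bulk libraries with high Xist from the others, C1ql2 had a log2 fold change of -2.56 (FDR = 0.0660 by edgeR) and was not called, while C1ql3 stayed called (FDR = 0.0420). Over all alternatives the FDR ranged from 2.53e-08 to 0.316 for C1ql2 and from 3.58e-32 to 0.234 for C1ql3.

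**Figure D1:**
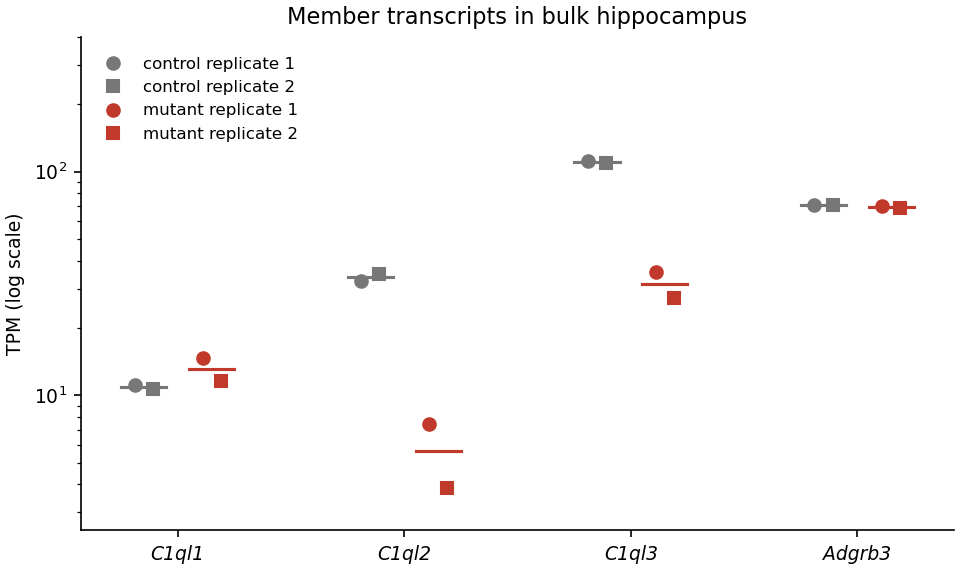
Level of each gene in bulk hippocampus in TPM on a log axis, with 1 point per mouse and a bar at the mean of 2 mice per genotype. Both mutants lay below both controls for C1ql2 and C1ql3, C1ql1 was slightly higher in the mutants, and Adgrb3 stood near 70 TPM in all 4 mice.

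C1ql1 and Adgrb3 did not pass the bulk test. C1ql1 stood at 11.1 and 10.7 TPM in the controls and at 14.7 and 11.6 TPM in the mutants, so that both mutants were above both controls (log2 fold change 0.36, SE 0.174, FDR = 0.353). Adgrb3 stood at 71.1 and 70.7 TPM in the controls and at 70.1 and 68.7 TPM in the mutants. On the CPM scale of the test its direction was the opposite, with 124 and 124 CPM in the controls and 133 and 125 CPM in the mutants (log2 fold change 0.06, SE 0.052, FDR = 0.600). Of all genes, 25.4% had both mutants below both controls and 25.8% had both above. The makeup of the ligand pool differed per transcript length. C1ql1, C1ql2 and C1ql3 summed to 155 TPM in both controls, 2.18 and 2.19 times the Adgrb3 level, and to 57.7 and 42.7 TPM in the mutants, 0.824 and 0.622 times the Adgrb3 level. C1ql3 held 61.6% to 71.8% of that sum in every mouse. C1ql2 held 21.0% and 22.5% of it in the controls and 13.0% and 9.01% in the mutants, whereas C1ql1 held 7.18% and 6.91% in the controls and 25.5% and 27.1% in the mutants. The related ligand C1ql4 was near absent and was not tested.

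The snRNAseq data showed which nuclei held each transcript. The levels below are CPM of UMIs (relative to all UMIs of a type in 1 mouse) over the 18 deposited labels with at least 10 nuclei in every mouse, and since the labels come from clustering the same genes, the order of types is a description with no test. C1ql3 was highest in DGCs, at 628 and 864 CPM in the controls, 3.25 times the next label. Mossy cells followed at 148 and 311 CPM, then excitatory neurons 10 at 74.3 and 279, CA1 at 81.5 and 148, and OPCs at 100 and 106. From mossy cells down to the last label, the control ranges of neighbours in this order overlapped, so only the first step, from DGCs to mossy cells, was larger than the spread between mice. CA3 pyramidal cells, the targets of the mossy fibres, stood at 34.6 and 52.3 CPM.

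C1ql2 was low outside DGCs and OPCs. It stood at 41.1 and 38.8 CPM in control DGCs and at 22.6 and 29.6 CPM in control OPCs, and the control ranges of these labels overlapped neither with each other nor with those that followed. All other labels had control means of 10.3 CPM or less. C1ql1 was an OPC transcript in these data, at 256 and 258 CPM in control OPCs, 11.7 times the mean of the next label, inhibitory neurons 12, at 13.7 and 30.2 CPM. Inhibitory neurons 14 stood at 17.1 and 20.0 CPM, within the range of inhibitory neurons 12. In control DGCs C1ql1 stood at 1.23 and 1.54 CPM. Adgrb3 was broad: the 4 lowest labels apart, it was above 985 CPM in both controls in every label, with excitatory neurons 8 first at 3282 and 3006 CPM and CA1 second at 3120 and 2703 CPM. DGCs stood at 1652 and 1498 CPM, CA3 at 1427 and 1298 CPM, and OPCs at 1765 and 1621 CPM. Oligodendrocytes stood at 388 and 224 CPM, and microglia, the lowest label, at 127 and 58.3 CPM.

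**Figure D2:**
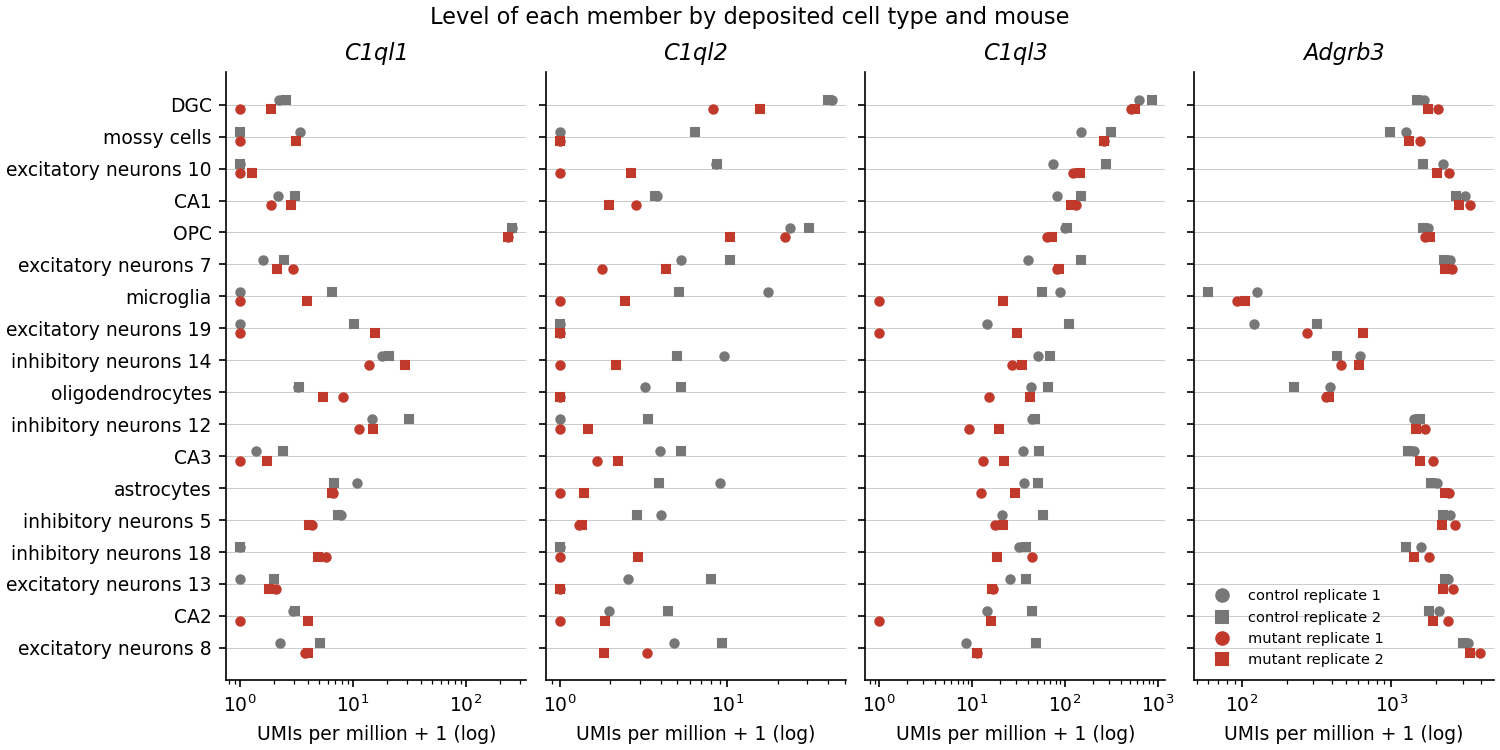
Level of each gene by deposited cell type in CPM plus 1 on a log axis, with 1 point per mouse, ordered by the control mean of C1ql3. DGCs led for C1ql3 and C1ql2, OPCs led for C1ql1 and came second for C1ql2, and Adgrb3 was high in most labels and lowest in microglia.

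Within the DGCs that remained, C1ql2 was lower in the mutant. It stood at 41.1 and 38.8 CPM in the controls and at 7.24 and 14.6 CPM in the mutants, and the genotypes did not overlap. Mutant replicate 1 rested on 3 UMIs in 90 nuclei, with an exact Poisson interval of 1.49 to 21.2 CPM for counting error only, and mutant replicate 2 on 50 UMIs in 463 nuclei. C1ql2 fell by 1.57 on the log2 scale (SE 0.264, 2.96-fold, FDR = 0.0242 by edgeR's quasi-likelihood test, n = 2 mice per genotype). It passed the snRNAseq thresholds of an FC above 2 and an FDR below 0.05, as did 0.64% of 15003 genes in that direction. The call was lost without either mutant, with a log2 fold change of -1.44 (FDR = 0.0986) without mutant replicate 1 and -2.51 (FDR = 0.392) without mutant replicate 2, where the lone mutant is assumed to vary like the controls. The FDR ranged from 1.85e-07 to 0.392 over all alternatives. The paper compared C1ql2 only over DGCs with at least 1 read and described similar normalized levels in both genotypes. The CPM values here are over all DGC nuclei, with or without a UMI, and are another measure. Control DGC nuclei with a UMI of C1ql2 numbered 416 and 499 and held 468 and 631 UMIs. Mutant ones numbered 3 and 46 and held 3 and 50 UMIs. A UMI of C1ql2 was found in 17.8% and 24.9% of control DGC nuclei and in 3.33% and 9.94% of mutant DGC nuclei. In oligodendrocytes, which should lack it, the share was 0.431% and 1.07% in the controls and 0 of 73 and 0 of 1112 nuclei in the mutants, which allows shares of up to 4.11% and 0.270%, at median depths of 1727 to 2339 UMIs against 4242 to 7688 in DGCs. With each nucleus thinned to 1500 UMIs, the DGC shares were 7.15% and 6.23% in the controls and 1.11% and 2.59% in the mutants, of which the first is a single nucleus. At 3000 UMIs they were 12.1% and 10.9% against 2.99% and 5.54%.

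C1ql3, the more abundant ligand, was lower by less and did not pass. It stood at 628 and 864 CPM in control DGCs and at 522 and 566 CPM in mutant DGCs, with both mutants below both controls, as for 26.1% of all genes. The log2 fold change was -0.45 (SE 0.180, FDR = 0.272). Over the alternatives it ranged from -0.64 to -0.16, short of an FC of 2 throughout, while the FDR was as low as 0.00576. At least 1 UMI was found in 89.6% and 98.6% of control DGC nuclei and in 83.3% and 94.2% of mutant DGC nuclei, against 7.76% and 14.5% of control and 2.74% and 7.55% of mutant oligodendrocyte nuclei, at the median depths given above. With each nucleus thinned to 1500 UMIs the shares were 57.6% and 70.9% in the controls and 56.7% and 60.5% in the mutants. In each genotype the deeper library had the higher share. C1ql2 made up 6.15% and 4.30% of the UMIs of C1ql2 and C1ql3 together in control DGCs and 1.37% and 2.51% in mutant DGCs. Adgrb3 in DGCs stood at 1652 and 1498 CPM in the controls and at 2050 and 1755 CPM in the mutants, with a log2 fold change of 0.27 (SE 0.137, FDR = 0.365). C1ql1 was too low in DGCs to be tested.

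The DGCs that remained also differed in regional markers, whose values are given here beside that of C1ql2. Lct, a marker of dorsal DGCs, stood at 25.1 and 28.1 CPM in the controls and at 12.1 and 9.34 CPM in the mutants and fell by 1.43 on the log2 scale (SE 0.273, FDR = 0.0364). Trhr, a marker of ventral DGCs, stood at 6.68 and 7.44 CPM in the controls and at 60.4 and 56.9 CPM in the mutants, a rise of 3.04 on the log2 scale (SE 0.219, FDR = 0.00164). Fst was listed here as ventral, although the paper's text does not name it so. It stood at 26.6 and 21.1 CPM in the controls and at 21.7 and 11.7 CPM in the mutants (FDR = 0.245). The genotypes overlapped for Fst, and it did not rise as Trhr did. Prox1, the transcription factor that defines DGCs, did not pass, with a log2 fold change of 0.18 (SE 0.154, FDR = 0.620). The other 7 of the 8 DGC markers had negative values and none was called, with a median over all 8 of -0.49, beside -0.01 over all genes. Stxbp6 among them had -0.88 (SE 0.152, FDR = 0.0260), below the FC of 2. The 8 markers summed to 2637 and 2275 CPM in control DGCs and to 2019 and 1833 CPM in mutant DGCs. The part of the regional makeup and of the DGC marker levels in the C1ql2 difference was not tested.

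Detection of pairs of transcripts in single DGC nuclei was compared within 5 strata of UMI depth, as an odds ratio that is above 1 where nuclei with one transcript held the other more often than nuclei without it. These are descriptions of sparse counts with no test, since nuclei of 1 mouse are not replicates. C1ql2 and C1ql3 had odds ratios of 0.849 and 0.809 in the controls and 2.46 in mutant replicate 2. In that mutant 436 of 463 nuclei held C1ql3, and 45 of the 46 nuclei with C1ql2 held both, so little room was left for a contrast. In mutant replicate 1 all 3 nuclei with C1ql2 held C1ql3, and no ratio could be computed. C1ql2 and Prox1 had odds ratios of 0.736 and 1.12 in the controls and of 0.111 and 1.303 in the mutants. They lay on both sides of 1 in each genotype, and the 0.111 rested on 1 nucleus with both. C1ql2 and Lct had 0.611 and 0.981 in the controls and 0 and 1.15 in the mutants, the latter from 0 and 3 nuclei with both. C1ql2 and Trhr had 0.657 and 0.585 in the controls, from 8 and 16 nuclei with both, and 8.33 and 1.10 in the mutants, from 2 and 16, so that the genotypes lay on opposite sides of 1. C1ql2 and Fst had 0.341 and 0.538, from 14 of 186 and 32 of 193 nuclei with Fst, and none of the 6 and 22 mutant nuclei with Fst held C1ql2.

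The share of each transcript held by each cell type changed with the number of DGCs. In the controls, DGC nuclei held 82.4% and 77.3% of all C1ql2 UMIs and 82.3% and 75.7% of all C1ql3 UMIs, beside 29.2% and 26.4% of all UMIs. In the mutants, DGC nuclei held 8.82% and 37.3% of C1ql2 and 9.95% and 27.7% of C1ql3, beside 1.57% and 4.48% of all UMIs. CA1 nuclei held the largest share of C1ql3 UMIs in the mutants, with 54.8% and 43.4%, against 10.3% and 13.8% in the controls, while their own C1ql3 level overlapped between genotypes. OPCs held 61.6% and 54.8% of C1ql1 UMIs in the controls and 51.7% and 61.0% in the mutants. CA1 nuclei held 40.3% to 45.4% of Adgrb3 UMIs in all 4 mice.

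**Figure D3:**
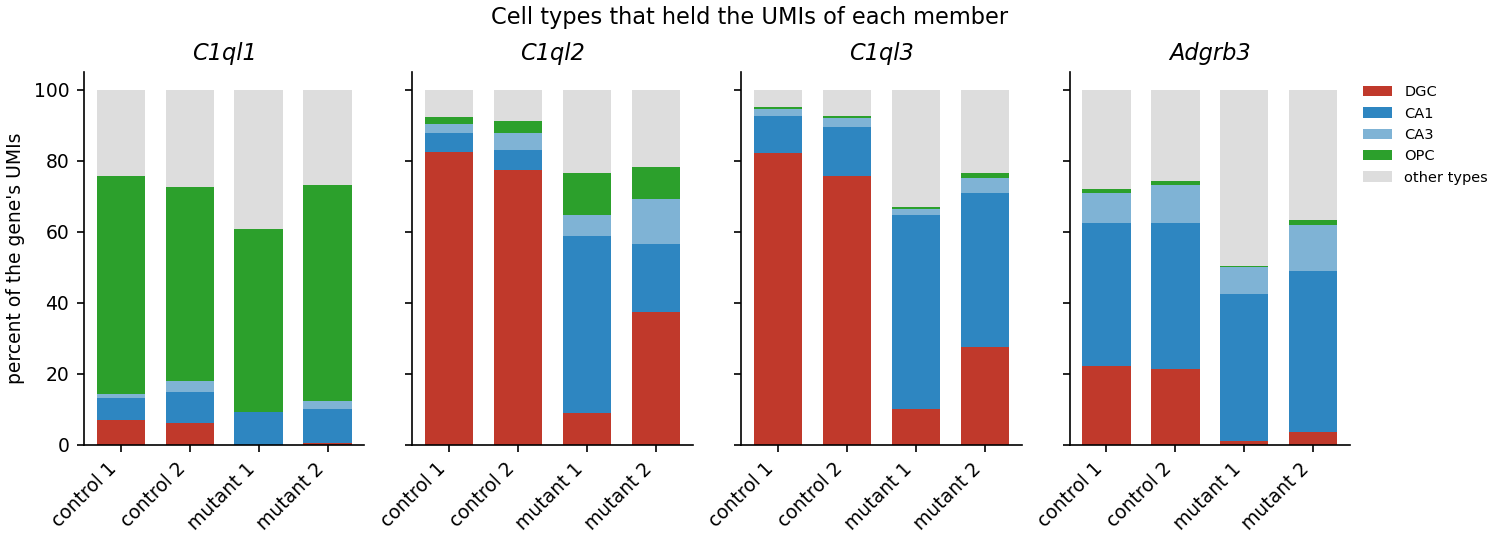
Percent of the UMIs of each gene that DGC, CA1, CA3, OPC and all other nuclei held, as a stacked bar per mouse. DGCs held most C1ql2 and C1ql3 UMIs in both controls and a minority in both mutants, whereas OPCs held over 50% of C1ql1 UMIs in every mouse.

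A composition-only level was set beside the observed one: the control level of each cell type, weighted by the share of UMIs that the type held in a mutant. Over all nuclei, C1ql3 stood at 0.315 and 0.350 of the control mean in the mutants, and composition alone gave 0.359 and 0.429. C1ql2 stood at 0.0929 and 0.126 of the control mean, and composition alone gave 0.333 and 0.410, so the observed level was 0.279 and 0.307 of the composition-only level. The same quotient was 0.308 and 0.387 for the DGC marker Dsp and 0.613 and 0.887 for Prox1. The composition-only level keeps the control level of every other label, and DGCs held only 1.57% and 4.48% of all UMIs in the mutants. C1ql2 was also lower in both mutants in CA1, CA3 and OPCs, so its quotient does not isolate a change within DGCs. The part of free DGC RNA in the levels of other labels was not tested. For Adgrb3 the observed ratios were 1.40 and 1.07 and the composition-only ratios 1.20 and 1.06. For C1ql1 they were 0.554 and 1.10 against 0.741 and 1.21, where OPCs were 1.68% of the nuclei of mutant replicate 1 and 4.24% of those of mutant replicate 2. With 2 mice per genotype an exact permutation test of such a ratio cannot give a two-sided p below 0.333, and none is given.

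Outside DGCs, no difference in a ligand or in the receptor passed the thresholds in edgeR's quasi-likelihood test. With DGCs counted as well, C1ql3 passed the filter on low counts in 16 of the 18 labels. It had a negative log2 fold change in 14 of them, with both mutants below both controls in 9, and a median log2 fold change of -0.85. By label, 17.7% to 26.1% of all genes had both mutants below both controls, and 0% to 0.64% were called lower. In CA3, C1ql3 stood at 34.6 and 52.3 CPM in the controls and at 12.2 and 21.3 CPM in the mutants, with a log2 fold change of -1.28 (SE 0.277, FDR = 0.168, and 2.86e-06 to 0.169 over the alternatives). In inhibitory neurons 12 it stood at 42.9 and 46.9 CPM in the controls and at 8.32 and 18.7 CPM in the mutants (log2 fold change -1.45, SE 0.349, FDR = 0.161). In microglia it stood at 88.1 and 55.5 CPM in the controls and at 0 and 20.4 CPM in the mutants (FDR = 0.642), where mutant replicate 1 had 13 nuclei. In CA1 it stood at 81.5 and 148 CPM in the controls and at 130 and 115 CPM in the mutants, so that the genotypes overlapped (log2 fold change 0.09, SE 0.246, FDR = 0.924). In mossy cells the genotypes also overlapped, with 148 and 311 CPM in the controls and 263 and 262 CPM in the mutants (FDR = 0.882).

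Values of DGC markers are given beside these labels. In CA3 nuclei, Prox1 stood at 13.8 and 12.2 CPM in the controls and at 1.02 and 4.31 CPM in the mutants, and Dsp, a desmosomal protein that marks DGCs, had 10 and 12 UMIs in the controls and 3 and 7 in the mutants. The Dsp counts are not scaled to depth. All nuclei together held 38980264 and 61559052 UMIs in the controls and 26307081 and 76486132 in the mutants. All 8 DGC markers summed to 151 and 185 CPM in control CA3 nuclei and to 132 and 128 CPM in mutant CA3 nuclei, with 1 marker at 0 in mutant replicate 1. C1ql2 in CA3 stood at 2.95 and 4.33 CPM in the controls and at 0.680 and 1.24 CPM in the mutants (log2 fold change -1.72, SE 0.475, FDR = 0.230). In CA1 C1ql2 stood at 2.83 and 2.73 CPM in the controls and at 1.86 and 0.985 CPM in the mutants (log2 fold change -1.07, SE 0.422, FDR = 0.470). The part of free DGC RNA in these levels was not tested.

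The genotype effect on C1ql3 in DGCs was compared with that in each other label in 1 model with a block for the mouse. It was lower in DGCs than in CA1 by 0.57 on the log2 scale (SE 0.147, FDR = 0.0173 by edgeR), where 2.52% of genes differed between these labels. It was higher in DGCs than in CA3 by 0.78 (SE 0.177, FDR = 0.00343), where 2.36% of genes differed. For C1ql3 no other label differed from DGCs at an FDR below 0.05, and the lowest FDR among them was 0.0637, in inhibitory neurons 12. For C1ql2 no label differed from DGCs beyond an FDR of 0.05: the difference from OPCs was -0.26 (SE 0.521, FDR = 0.951) and that from CA3 was 0.14 (SE 0.416, FDR = 0.972). The fall of C1ql2 is therefore not shown to be particular to DGCs.

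**Figure D4:**
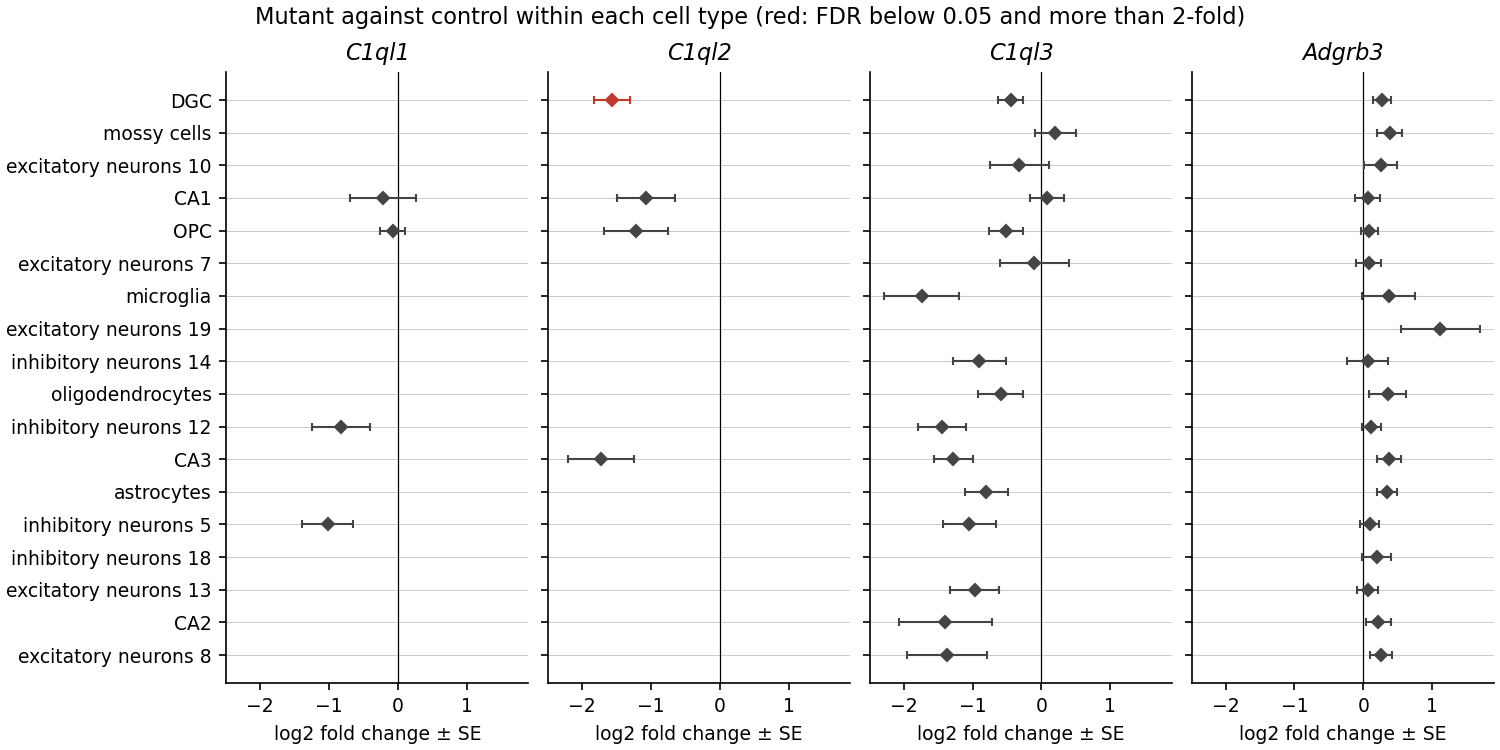
Log2 fold change of each gene between mutant and control within each label, as a diamond with its SE (n = 2 mice per genotype), where labels with too few counts are blank. C1ql2 in DGCs was the 1 difference past the thresholds, most C1ql3 values lay below 0 apart from CA1 and mossy cells, and all 18 Adgrb3 values lay above 0.

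In OPCs, the dividing precursors of oligodendrocytes, C1ql1 stood at 256 and 258 CPM in the controls and at 237 and 237 CPM in the mutants. Both mutants were below both controls by a small margin, as for 19.9% of all genes in OPCs, and the difference did not pass (log2 fold change -0.07, SE 0.178, FDR = 0.945). C1ql1 was found in 41.7% and 57.3% of control OPC nuclei and in 37.1% and 48.5% of mutant OPC nuclei, against 0.431% to 1.37% of oligodendrocyte nuclei, at median depths of 2030 to 3609 and 1727 to 2339 UMIs. Thinned to 1500 UMIs, the OPC shares were 28.0% and 30.8% in the controls and 30.3% and 28.9% in the mutants. C1ql2 in OPCs stood at 22.6 and 29.6 CPM in the controls and at 21.1 and 9.32 CPM in the mutants (log2 fold change -1.22, SE 0.464, FDR = 0.486). Over the 4 mice, OPCs held 53 UMIs of C1ql2 and 2 of Dsp, whereas DGCs held 1152 and 1265, a ratio of C1ql2 to Dsp of 26.5 (95% exact interval 6.98 to 225, counting error only) against 0.911 (0.840 to 0.987). By mouse, DGCs held 468 and 631 UMIs of C1ql2 beside 528 and 635 of Dsp in the controls. In the mutants they held 3 and 50 beside 14 and 88. The pooled intervals leave out this spread between mice and genotypes. The ratio of C1ql2 to Dsp was also above that of DGCs in CA3, at 2.31 (1.51 to 3.62), and in CA1, at 1.92 (1.41 to 2.65). In oligodendrocytes it was 4.00 (1.08 to 22.1), so a ratio above that of DGCs was not particular to OPCs. C1ql2 was also 11.4% to 25.0% of the UMIs of C1ql2 and C1ql3 in OPCs, above the 1.37% to 6.15% in DGCs. The 25.0% rested on 4 UMIs of C1ql2 in mutant replicate 1. In the controls this share was 18.4% and 5.45% in astrocytes and 15.8% and 6.98% in microglia. OPC nuclei with C1ql1 held C1ql2 with odds ratios of 0.675 and 1.10 in the controls and 1.83 and 1.73 in the mutants, from 2 to 16 nuclei with both, a pair chosen after the levels were seen. In other labels C1ql1 stood at 6.78 and 6.34 CPM in control inhibitory neurons 5 and at 3.30 and 3.06 CPM in the mutants (log2 fold change -1.02, SE 0.374, FDR = 0.393).

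Adgrb3 had a positive log2 fold change in all 18 labels, from 0.06 to 1.12 with a median of 0.24, and passed in none (FDR 0.365 to 1.00). The 1.12 was that of excitatory neurons 19 (SE 0.577), where the genotypes overlapped. It rested on 9 and 35 UMIs of Adgrb3 in the controls and 13 and 130 in the mutants. Excitatory neurons 19 were also second highest for all 4 meninges markers. Both mutants were above both controls in 5 labels, against 12.4% to 22.4% of all genes by label. In CA3 it stood at 1427 and 1298 CPM in the controls and at 1906 and 1547 CPM in the mutants (log2 fold change 0.37, SE 0.175, FDR = 0.426). In astrocytes it stood at 2020 and 1848 CPM in the controls and at 2453 and 2305 CPM in the mutants (log2 fold change 0.34, SE 0.142, FDR = 0.375). The direction was not shared by every subset of mice: without mutant replicate 1, 5 of the 18 values were below 0.

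Related genes were read from lists chosen by function. Among other C1q-domain organisers, the cerebellins, none of the 4 tested passed in bulk RNA, and the largest values were -0.86 for Cbln3 (FDR = 0.367) and 0.57 for Cbln4 (FDR = 0.144) on the log2 scale. None of the 6 relatives and partners of the receptor passed in bulk RNA. Within DGCs 1 of these 6 passed, Elmo1, an adaptor that binds Adgrb proteins and activates Rac: it stood at 26.0 and 26.4 CPM in the controls and at 64.6 and 58.2 CPM in the mutants and rose by 1.20 on the log2 scale (SE 0.190, FDR = 0.0186), among 0.827% of genes called in that direction. Of 5 cerebellin receptors and neurexins, none passed in bulk RNA or, with the FC above 2, in DGCs. Grid1, a delta receptor, had a log2 fold change of 0.68 (FDR = 0.0475) in DGCs, below that FC, where 1.04% of all genes had an FDR below 0.05 and a positive value.

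Among 7 genes of kainate receptors and their auxiliary subunits, none passed the FC above 3 in bulk RNA. Grik2, the main kainate receptor subunit of the mossy fibre synapse, stood at 70.2 and 70.6 CPM in the controls and at 47.6 and 42.1 CPM in the mutants and had a log2 fold change of -0.65 (SE 0.072, FDR = 0.0328). It was 1 of 5 genes of the list with a negative value, and the list's median was -0.07, beside 0.01 over all genes. In DGC nuclei none of the 7 passed, and Grik2 had a log2 fold change of 0.05 (FDR = 0.928). None of the 7 passed in CA3 nuclei either, where 3 had a negative value and the median was 0.16, beside 0.01 over all genes.

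Of 12 other mossy fibre synapse genes, 10 had a negative log2 fold change in bulk RNA, with a median of -0.33, and 5 had an FDR below 0.05, as did 1.01% of all genes in that direction. Pdyn, the precursor of dynorphin, was the 1 gene past the FC above 3: it stood at 18.5 and 20.1 CPM in the controls and at 4.47 and 2.65 CPM in the mutants and fell by 2.44 on the log2 scale (SE 0.260, FDR = 0.0286). Calb1, the calcium buffer calbindin, had a log2 fold change of -1.07 (SE 0.048, FDR = 0.00780). Synpr, a synaptic vesicle protein, had -0.89 (SE 0.046, FDR = 0.0102), and Slc30a3, the vesicular zinc transporter, had -0.85 (SE 0.052, FDR = 0.0135). Beside the -2.44 of Pdyn, C1ql2 had -2.48 and C1ql3 -1.72, and 7 of 8 DGC markers passed, with a median of -2.20. Within DGC nuclei none of the 12 passed, and their median log2 fold change was -0.09, beside -0.01 over all genes. Penk, the precursor of enkephalin, had the largest value there, -1.56 (SE 0.564, FDR = 0.219).

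**Figure D5:**
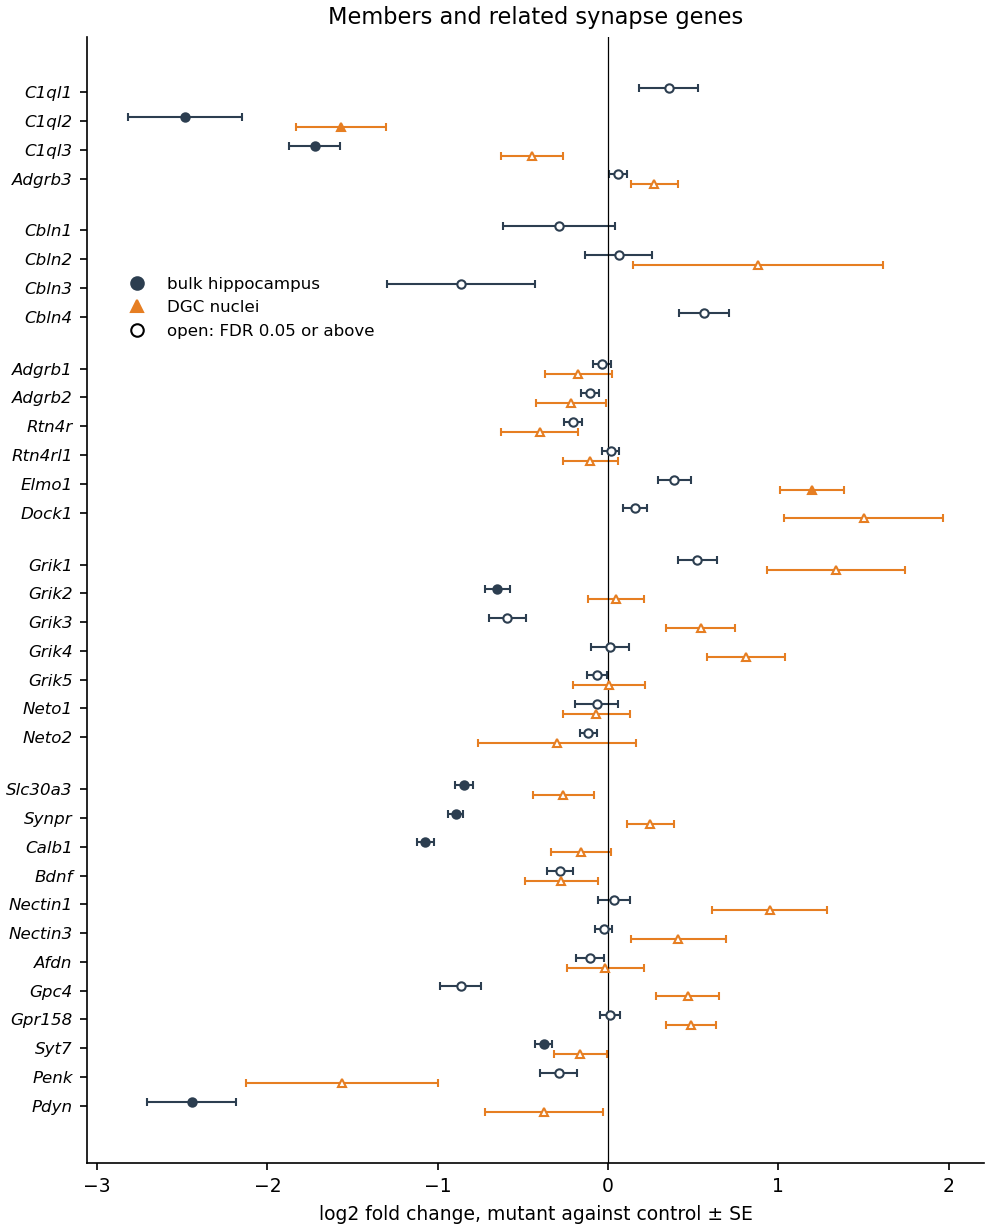
Log2 fold change with SE of the 4 C1q-like genes and of the listed cerebellins, receptor partners, kainate receptor genes and mossy fibre synapse genes, in bulk hippocampus (circles) and in DGC nuclei (triangles), filled where the FDR was below 0.05. C1ql2, C1ql3 and Pdyn had the lowest bulk values, and C1ql2 was the 1 gene filled below 0 in both.

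The genes whose control levels over the 18 labels were most like each C1q-like gene were found by Pearson correlation of log2(CPM + 1) among 8344 genes with at least 50 CPM in some label. Labels share libraries and differ in depth, so these are descriptions. For C1ql1 they were Pdgfra, the receptor that defines OPCs (r = 0.830), Pxdc1 (0.823), Cfap20 (0.820), Gm19299 (0.817) and Rgcc (0.816), all 5 highest in OPCs. For C1ql3 they included Arsj (r = 0.767), Btbd9 (0.710), Slc29a4 (0.699) and Itpka (0.691). For Adgrb3 they were 4930570B17Rik (r = 0.950), Prelid3a (0.941), Map2 (0.941), Mapk10 (0.935) and Gm21954 (0.920). C1ql2 was below 50 CPM in every label and was left out. Between the ligands, C1ql2 and C1ql3 had r = 0.564 and C1ql1 and C1ql3 had r = -0.07 over the 18 labels.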

How the data were processed

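Both hippocampi of 1 mouse made each library. For bulk RNAseq the authors deposited RSEM expected counts and TPM per gene (RSEM 1.3.0, Bowtie2 2.2.9, mm10, directional kit), and a matrix of counts divided by size factors, a signal scale used as an alternative; whether counting used strand is not given in the sources used here. For snRNAseq the authors deposited UMI counts per nucleus (Cell Ranger 3.1.0) with assigned cell types; doublet treatment was taken as deposited, and no nucleus was removed here. Expected counts were rounded and tested with edgeR 4.0.16 (filterByExpr, TMM, quasi-likelihood, Benjamini-Hochberg over all genes), and UMIs were summed per mouse and label before the same test in 18 labels with at least 10 nuclei in every mouse. Calls needed an FDR below 0.05 and an FC above 3 (bulk) or 2 (snRNAseq), the study's FC and FDR thresholds. Each genotype had 2 separate mice. Shares used exact binomial 95% intervals and a floor of 3 counts, for counting error only. Scripts were tested on simulated data. Members and lists were chosen with earlier results of these data known. Named genes were the 4 members, Wls, and at most 4 examples per list, past the thresholds or else with the largest differences. Some listed genes are not reported here.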

Additional observations from a re-analysis of the deposited data

Results flagged for a closer look

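The genotype effect on C1ql3 differed between cell types in 2 comparisons, each past the threshold of its own test of the difference. DGCs were compared with every other tested label, and none of the remaining comparisons passed for C1ql3. The effect on C1ql3 in DGC nuclei minus that in CA1 nuclei was -0.57 on the log2 scale, where the log2 fold change was -0.45 in DGCs and 0.09 in CA1. The effect on C1ql3 in DGC nuclei minus that in CA3 nuclei was 0.78, where the log2 fold change in CA3 was -1.28. CA3 nuclei also held less Prox1 in the mutant, and the part of this in the C1ql3 value was not tested. With 2 samples per group, single outlying samples were not tested.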

How the results depend on the processing

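The log2 fold changes of C1ql2 and C1ql3 in bulk RNA and of C1ql2 in DGC nuclei stayed negative under every alternative, and their calls depended on single libraries. Leaving out each mouse in turn gave log2 fold changes of -3.08 to -2.06 for C1ql2 and -1.97 to -1.52 for C1ql3 in bulk RNA, and -2.51 to -1.44 for C1ql2 in DGC nuclei. The genes called lower then numbered 0 to 147 in bulk RNA and 0 to 208 in DGC nuclei, and those called higher 0 to 248 and 0 to 363, against 41, 96, 4 and 124 in all mice. Of the values whose sign turned, C1ql1 in CA1 ranged from -0.93 to 0.23, C1ql3 in CA1 from -0.27 to 0.54 and C1ql3 in mossy cells from -0.21 to 0.83. DESeq2 called 66 genes lower and 73 higher in bulk RNA. With no filter on low counts, 112 and 201 were called in bulk RNA and 261 and 295 in DGC nuclei. With an FDR below 0.05 alone, 209 and 41 were called in bulk RNA.

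No label says that a replicate number marks a litter, batch or day. Deviations of mice of equal number correlated at 0.18 in bulk RNA, where the number also split the libraries by Xist and Ddx3y, and at 0.28 in DGC, 0.47 in CA1 and 0.44 in CA3 nuclei, and with 2 pairs a pairing was not taken as shown. With the replicate number as a block, C1ql2 in bulk RNA had -2.56 (FDR = 0.0660 by edgeR), 24 and 2 genes were called in bulk RNA, and 261 and 308 in DGC nuclei. C1ql3 then passed in 4 labels, as it did with no filter on low counts and without control replicate 1, while it passed in 2 without mutant replicate 2 and in 1 by DESeq2. Added after seeing the data, mice numbered 1 alone gave -2.004 for C1ql2 in bulk RNA and -2.52 in DGC nuclei, and mice numbered 2 alone gave -3.13 for C1ql2 and -1.95 for C1ql3 in bulk RNA, with no test. The causes were not tested. No nucleus had fewer than 1500 UMIs, so that alternative changed nothing. Under Spearman correlation 1 of the 5 genes most like Adgrb3 was kept and 0 of those most like C1ql1 or C1ql3. The 3 UMIs of C1ql2 in the DGCs of mutant replicate 1 limit the precision within DGCs.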

Other observations

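Pter, a forward-strand gene that ends at chr2:13003455, lies beside the 3′ end of the reverse-strand gene C1ql3. It was looked at after its values were seen. In bulk RNA it stood at 124 and 116 CPM in the controls and at 45.5 and 35.1 CPM in the mutants, a log2 fold change of -1.58 (SE 0.129, FDR = 0.0216 by edgeR), close to that of C1ql3. In DGC nuclei Pter stood at 7.03 and 7.75 CPM in the controls and at 4.83 and 9.34 CPM in the mutants (log2 fold change 0.22, FDR = 0.817), and it was higher in OPCs, at 39.0 and 53.5 CPM in the controls and 52.6 and 50.5 CPM in the mutants. Gm37824, annotated on the opposite strand within C1ql3, had a bulk log2 fold change of -2.10 (SE 0.322, FDR = 0.0608). Whether the counting used strand is not given in the sources used here, so reads of C1ql3 and Gm37824 may not have been told apart.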
